A study of Mus musculus with 6 samples.

Results

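Amino acids and short peptides cross the membranes of the muscle fibre on solute carriers. The genes described here are the rows of a mouse expression array whose gene symbol belongs to the solute carrier families Slc1, Slc3, Slc6, Slc7, Slc15, Slc36, Slc38 or Slc43, chosen by symbol through each row's Entrez identifier. There are 63 such rows among 16492 gene rows, each with 1 probe set per gene. Of these, 62 are carrier genes, and Slc7a6os is a gene named for its place opposite Slc7a6 that encodes no carrier. The families were singled out for description with their genotype differences already known, so the differences below describe these 6 mice and are no independent support for the choice.

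Transcripts were measured in quadriceps, a large thigh muscle, of 3 mice heterozygous for nebulin (nebulin +/-, a single nebulin allele) and 3 wild-type mice (nebulin +/+, both alleles), with 1 Affymetrix array for each mouse. Nebulin is a giant protein of the skeletal muscle thin filament. The labels give no strain, age, sex or treatment, and they do not say how the nebulin allele was made. Each sample is labelled as a separate animal.

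Several of these carriers work together. Slc38 carriers of the system A type bring small neutral amino acids such as glutamine and alanine into the cell with sodium, and Slc7 exchangers, many of them joined to the heavy chain Slc3a2, trade such amino acids for leucine and other large ones. Slc15 carriers move dipeptides, tripeptides and, in lysosomes, histidine with protons, and Slc6 carriers bring in creatine, taurine, glycine and neurotransmitters with sodium and chloride. Muscle is the body's main store of amino acids and releases glutamine and alanine in fasting.

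In heterozygous quadriceps 3 of the 38 genes tested were called lower, against 1.58% of all tested probe sets. Slc38a4, a system A carrier, was lower by 38.1%. Slc15a5, a little-studied relative of the peptide carriers, was lower by 37.3%, and Slc15a4, a lysosomal carrier of histidine and peptides, by 18.1%. None was called higher with the mice unpaired. The remaining genes included the creatine carrier Slc6a8, the taurine carrier Slc6a6 and the leucine exchanger Slc7a5 with its heavy chain Slc3a2, and none of these passed the test.

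The promoters of the 3 lower genes are shown because these are the genes whose transcripts differed. Each is a window of 300 bases, most of it before an annotated start and the last 50 after it, from RefSeq on build GRCm38.p6, read 5′ to 3′ on the minus strand. Capitals mark matches to TGATGNAA, the core of the element bound by ATF4 and C/EBP factors in the response to amino acid shortage, or to TATAAA, the letters of a TATA box. Slc15a4 lies at chr5:127617343-127617642, Slc15a5 at chr6:138079867-138080166, and Slc38a4 has starts at chr15:97055907-97056206 and chr15:97031164-97031463, with another start not printed.
Slc15a4: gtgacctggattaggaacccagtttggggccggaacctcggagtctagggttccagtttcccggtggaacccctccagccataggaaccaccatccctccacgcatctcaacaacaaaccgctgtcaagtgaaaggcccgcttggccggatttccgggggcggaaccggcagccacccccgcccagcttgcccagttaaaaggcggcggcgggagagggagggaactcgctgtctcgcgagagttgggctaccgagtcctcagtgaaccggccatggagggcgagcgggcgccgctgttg
Slc15a5: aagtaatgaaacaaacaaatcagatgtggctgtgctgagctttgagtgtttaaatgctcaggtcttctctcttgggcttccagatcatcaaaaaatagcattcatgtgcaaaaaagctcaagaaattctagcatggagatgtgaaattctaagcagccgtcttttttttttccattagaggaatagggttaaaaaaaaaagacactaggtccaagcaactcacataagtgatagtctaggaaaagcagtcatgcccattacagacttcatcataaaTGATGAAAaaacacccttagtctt
Slc38a4, upstream start: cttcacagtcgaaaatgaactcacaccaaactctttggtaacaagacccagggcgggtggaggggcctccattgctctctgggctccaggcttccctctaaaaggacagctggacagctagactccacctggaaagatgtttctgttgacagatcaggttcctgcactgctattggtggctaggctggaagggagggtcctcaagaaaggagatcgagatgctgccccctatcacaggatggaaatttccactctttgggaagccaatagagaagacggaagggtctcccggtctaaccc
Slc38a4, downstream start: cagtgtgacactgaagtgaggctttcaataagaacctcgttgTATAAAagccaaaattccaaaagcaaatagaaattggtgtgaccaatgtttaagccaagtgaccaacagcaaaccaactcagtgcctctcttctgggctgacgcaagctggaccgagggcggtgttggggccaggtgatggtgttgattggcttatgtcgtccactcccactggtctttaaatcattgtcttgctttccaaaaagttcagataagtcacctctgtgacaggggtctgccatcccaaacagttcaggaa

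The Slc15a5 window held 1 match to TGATGNAA, which lies after the annotated start and not before it. The downstream Slc38a4 window held 1 match to TATAAA, which lies near the 5′ end of the window, far from the annotated start. The Slc15a4 window and the upstream Slc38a4 window held neither TGATGNAA nor TATAAA. Searched on both strands, TGATGNAA was in 3.91% of 32544 RefSeq promoter windows of the same length and in 5 of the 65 windows of the 44 transporter genes that matched the promoter table, those of Slc15a5, Slc1a4, Slc7a11 and Slc7a7. TATAAA was in 13.6% of all windows and in 6 of the 65. The clock and MYC-type E-box CACGTG was in 7.17% of all windows and in 8 of the 65, and the cyclic AMP element TGACGTCA was in 1.8% of all windows and in 0 of the 65. The E-box and the cyclic AMP element were in none of the printed windows. The G and C content was 64% for Slc15a4, 36.7% for Slc15a5 and 53% and 46.7% for the upstream and downstream Slc38a4 windows, against a median of 53% over all windows. A match is a match of letters, and these arrays hold no measure of binding.

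All arrays had the same distribution of log2 signal, centred on a median of 7.23 within limits of 5.56 and 14.81, and having 3 arrays a group limits precision. The transcript of the targeted gene, Neb, had a log2 signal of 12.08, 11.73 and 11.94 in heterozygous mice, against 12.17, 12.09 and 12.16 in wild-type mice, with an adjusted p of 0.161 (limma). Since the position of its probes against the altered part is unknown here, it does not check the labels. All 9 skeletal muscle markers were above the filter, among them Acta1, Ckm, Des and Ttn, and none passed the test. Their summed signal was 16.96 to 17.07 in heterozygous mice and 17.03 to 17.09 in wild-type mice, as log2 of the sum of linear signals. With the same distribution in all arrays, a sum led by the brightest transcripts can differ little between mice. It is therefore a weak check of muscle content. All 6 slow fibre markers (Myh7, Tnnc1, Tnni1, Tnnt1, Myl2 and Myl3) rose, and their summed signal was 14.34 to 14.62 in heterozygous mice, against 12.88 to 13.39 in wild-type mice. Whether this shift has a part in the transporter differences was not tested. In whole muscle, fewer cells of a type and less RNA per cell cannot be told apart.

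Genes were tested if their mean log2 signal exceeded 6.74, a filter that leaves out the dimmest 30% of gene rows. Of the 63 genes 38 were, and 25 were not. Genotypes were compared with limma over all 11544 probe sets above the filter, heterozygous minus wild type, and a gene is called lower or higher where its Benjamini-Hochberg adjusted p is under 0.05. Across all tested probe sets 3.11% were called, 1.58% lower and 1.53% higher. Among the 38 transporter genes 3 were called lower and 0 higher, 6 had an unadjusted p under 0.05 (20.5% of all tested probe sets did), and 35 did not pass. The size of the difference was under 0.1 on the log2 scale for 30 of the 38, and for 75.2% of all tested probe sets. The median size of the difference was 0.054 in the transporter genes and likewise 0.054 over all tested probe sets. The median signed difference was 0.0034 in the transporter genes and -0.0013 over all tested probe sets, and 21 transporter differences were positive and 17 negative.

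**Figure D1:**
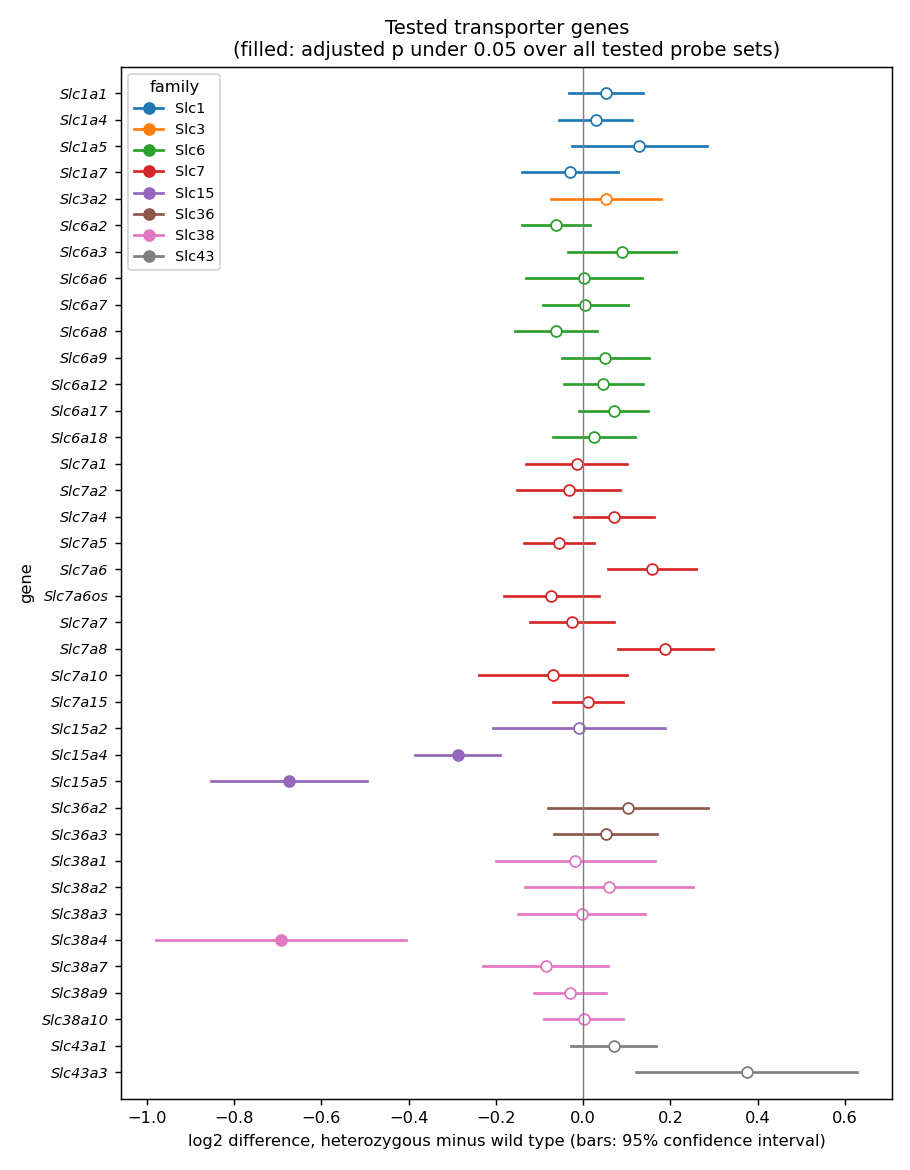
Log2 difference, heterozygous minus wild type, of the 38 tested transporter genes (points) with 95% confidence intervals (bars), coloured by family. Filled points are the 3 genes with an adjusted p under 0.05, and Slc15a5 at -0.67 and Slc38a4 at -0.69 lie farthest from 0.

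The Slc15 family carries peptides and histidine, and 2 of its 3 tested genes fell. Slc15a5 had a log2 signal of 7.42, 7.19 and 7.41 in heterozygous mice, against 8.08, 7.87 and 8.08 in wild-type mice. All heterozygous mice lay below all wild-type mice, with a gap of 0.46 between the groups. The means were 7.34 ± 0.13 in heterozygous mice and 8.01 ± 0.12 in wild-type mice (n = 3 each, SD), a log2 difference of -0.67 ± 0.08 (SE; limma, adjusted p = 0.0083), or -37.3% with a 95% confidence interval of -44.6% to -29.0%. Slc15a5 passed the test in each of the 6 fits that left out 1 mouse, with an adjusted p of at most 0.0357 (limma).

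Slc15a4, which exports histidine and peptides from lysosomes and is known for its role in immune cells, had a log2 signal of 7.69, 7.65 and 7.70 in heterozygous mice, against 7.90, 7.98 and 8.02 in wild-type mice. The groups did not overlap, and the heterozygous mice lay close together. The means were 7.68 ± 0.03 in heterozygous mice and 7.97 ± 0.06 in wild-type mice (n = 3 each, SD), a log2 difference of -0.29 ± 0.04 (SE; limma, adjusted p = 0.0142), or -18.1% with an interval of -23.4% to -12.4%. The call was lost, at a like difference, without heterozygous mouse 2 (limma adjusted p = 0.056), heterozygous mouse 3 (0.053) or wild-type mouse 2 (0.061). None of the 8 leukocyte markers passed the test, their median difference was -0.060, and their summed signal was 11.39 to 11.46 in heterozygous mice and 11.33 to 11.68 in wild-type mice. All 8 were above the filter, including the pan-leukocyte gene Ptprc. Whether leukocytes have a part in the Slc15a4 difference was not tested.

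Slc15a2, a high-affinity peptide carrier of kidney and brain, spanned 6.82 to 6.89 in heterozygous and 6.75 to 7.09 in wild-type mice, with a log2 difference of -0.0094 (limma adjusted p = 0.962). The intestinal peptide carrier Slc15a1 and the lysosomal Slc15a3 were below the filter, with means over all arrays of 6.08 and 6.28. The median difference of the 3 tested Slc15 genes was -0.29, and -0.48 with the filter at the 50th percentile, which kept 2 of them.

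**Figure D2:**
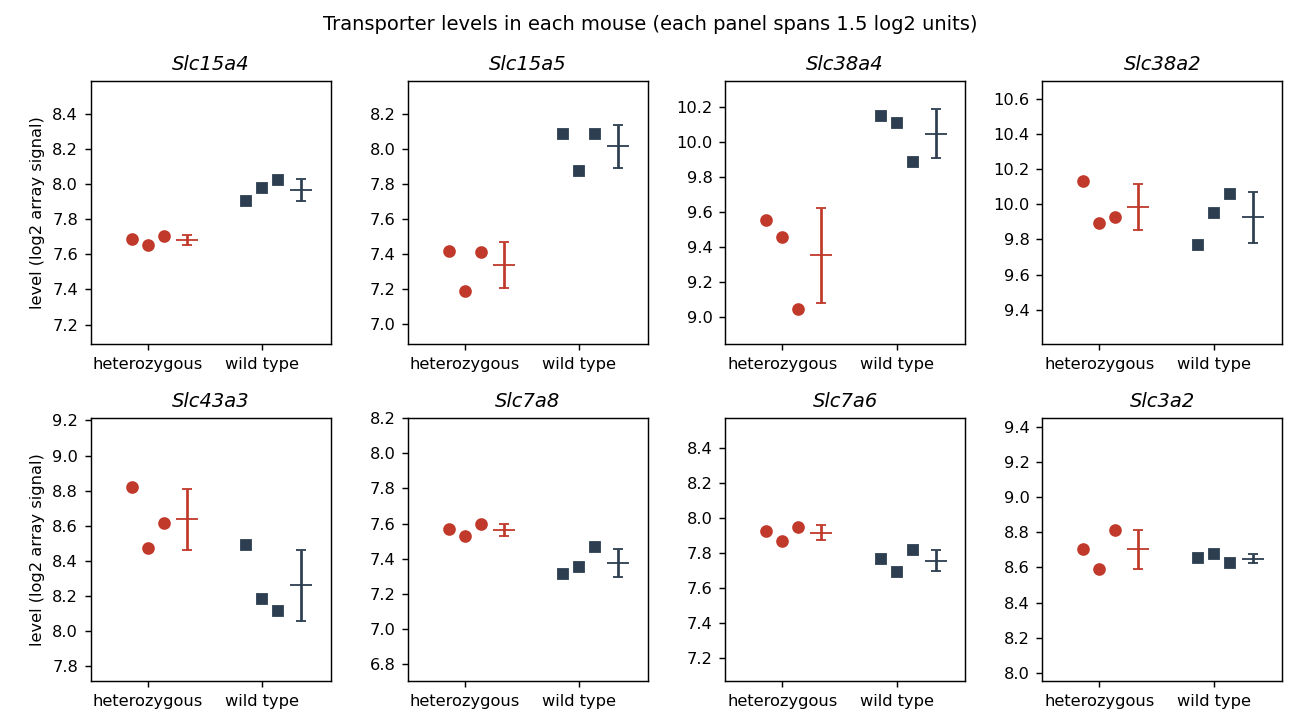
Log2 array signal of 8 transporter genes in each heterozygous mouse (circles) and each wild-type mouse (squares), with the group mean and SD beside them, n = 3 each; every panel spans the same height of 1.5 log2 units. Heterozygous mice lie below all wild-type mice for Slc15a4, Slc15a5 and Slc38a4, above them for Slc7a8 and Slc7a6, and overlap with them for Slc38a2, Slc43a3 and Slc3a2.

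The Slc38 family holds the sodium-coupled carriers of glutamine and other neutral amino acids, and 1 of its 7 tested genes fell. Slc38a4 had a log2 signal of 9.56, 9.46 and 9.05 in heterozygous mice, against 10.15, 10.11 and 9.89 in wild-type mice. The groups did not overlap, with a gap of 0.33, and heterozygous mouse 3 and wild-type mouse 3 were the lowest of their groups. The means were 9.35 ± 0.27 in heterozygous mice and 10.05 ± 0.14 in wild-type mice (n = 3 each, SD), a log2 difference of -0.69 ± 0.13 (SE; limma, adjusted p = 0.0305), or -38.1% with an interval of -49.3% to -24.6%. The call was lost without heterozygous mouse 2 (limma adjusted p = 0.075), wild-type mouse 1 (0.097) or wild-type mouse 2 (0.090), at differences of -0.74, -0.64 and -0.66. For each of the 3 lower genes a two-sided exact permutation test gave p = 0.1, the least possible with 3 mice a group.

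Slc38a1, Slc38a2 and Slc38a4 are system A genes that follow each other on chromosome 15. Slc38a2, the system A carrier that cells raise when amino acids run short, had a log2 signal of 10.14, 9.89 and 9.93 in heterozygous mice, against 9.77, 9.95 and 10.06 in wild-type mice. The groups overlapped over most of their range. Its log2 difference was 0.059 (95% confidence interval -0.13 to 0.25; limma adjusted p = 0.737), and its sign turned without heterozygous mouse 1 or wild-type mouse 1. Slc38a1 spanned 6.89 to 7.22 in heterozygous and 7.02 to 7.06 in wild-type mice, with a log2 difference of -0.018 (interval -0.20 to 0.17). The intervals of Slc38a2 and Slc38a1 do not reach the difference of -0.69 seen for Slc38a4.

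Of the remaining Slc38 genes, Slc38a7, a lysosomal glutamine exporter, had a log2 difference of -0.086 (limma adjusted p = 0.473). The glutamine carrier Slc38a3, the lysosomal arginine sensor Slc38a9 and Slc38a10 had differences of -0.0029, -0.031 and 0.0019. Slc38a5, a glutamine carrier like Slc38a3, was below the filter with a mean of 6.47. Over the 7 tested genes the median difference was -0.018.

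Slc7 genes encode cationic carriers and the light chains of the exchangers, and none of 10 tested rows passed, with differences from -0.073 (Slc7a6os) to 0.19 (Slc7a8). Slc7a8, an exchanger of neutral amino acids that pairs with Slc3a2, had a log2 signal of 7.57, 7.53 and 7.60 in heterozygous mice, against 7.31, 7.36 and 7.46 in wild-type mice. Slc7a6, which pairs with the same heavy chain and exchanges arginine for glutamine and leucine, had 7.93, 7.87 and 7.95 in heterozygous mice, against 7.76, 7.69 and 7.81 in wild-type mice. For both genes all heterozygous mice lay above all wild-type mice. The log2 differences were 0.19 ± 0.05 for Slc7a8 and 0.16 ± 0.04 for Slc7a6 (SE; limma, adjusted p = 0.072 and 0.094).

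Slc7a5, the leucine exchanger that feeds mTORC1 signalling, had a log2 signal of 7.11, 7.10 and 7.12 in heterozygous mice, against 7.16, 7.14 and 7.19 in wild-type mice. The groups did not overlap, but they were 0.015 apart. Its log2 difference was -0.055 (interval -0.14 to 0.025; limma adjusted p = 0.407). Slc3a2, the shared heavy chain, had 8.70, 8.59 and 8.81 in heterozygous mice, against 8.65, 8.68 and 8.62 in wild-type mice. The wild-type mice lay within the range of the heterozygous mice, and the log2 difference was 0.052 (interval -0.074 to 0.18; limma adjusted p = 0.638).

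The cationic carriers Slc7a1 and Slc7a2, which bring in arginine and lysine, had differences of -0.015 and -0.033. Slc7a4, Slc7a7, Slc7a10 and Slc7a15 had differences of 0.071, -0.025, -0.069 and 0.012. Slc7a3, Slc7a9, Slc7a11, Slc7a12, Slc7a13 and Slc7a14 were below the filter, with means of 5.98 to 6.67. Slc7a11 encodes the cystine exchanger, and Slc3a1, the heavy chain that pairs with Slc7a9, was also below the filter with a mean of 6.42. The median difference of the 10 tested Slc7 rows was -0.020, and its sign turned without wild-type mouse 1 (0.0095) and with the filter at the 50th percentile, which kept 3 of them (0.16).

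The 2 tested Slc43 genes had positive differences, and neither passed with the mice unpaired. Slc43a3, which carries purine nucleobases and not amino acids, had a log2 signal of 8.82, 8.47 and 8.62 in heterozygous mice, against 8.49, 8.18 and 8.11 in wild-type mice. Heterozygous mouse 2 lay just below wild-type mouse 1, so the groups overlapped. The log2 difference was 0.38 ± 0.11 (SE; limma, adjusted p = 0.107), and with the mouse number as a block the adjusted p was 0.0127. With that block 1 transporter gene was called higher and 3 lower, against 4.95% of all tested probe sets called in either direction, 2.27% higher and 2.69% lower. Slc43a3 is known in endothelium; of the 9 endothelial markers Egfl7 fell (log2 difference -0.25, limma adjusted p = 0.0271), none rose, and their summed signal was 11.25 to 11.43 in heterozygous mice and 11.44 to 11.61 in wild-type mice. With the block Kdr and Cldn5 of this list also passed, lower (limma adjusted p = 0.0174 and 0.0184). All 9 endothelial markers were above the filter. Whether endothelium has a part in the Slc43a3 difference was not tested.

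Slc43a1, a carrier of leucine and other large neutral amino acids, had a log2 difference of 0.070 (limma adjusted p = 0.392), and its relative Slc43a2 was below the filter with a mean of 6.57. Slc43a1 and Slc43a3 lie on chromosome 2, as does Neb. They were the 2 tested among 3 transporter genes there, the other being the glutamate carrier Slc1a2, below the filter.

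Slc6 genes, the sodium and chloride coupled carriers, made up 20 of the 63, and none of the 9 tested passed. Slc6a8, which brings creatine into muscle, had a log2 signal of 9.47, 9.39 and 9.46 in heterozygous mice, against 9.54, 9.46 and 9.51 in wild-type mice. The groups overlapped, and the log2 difference was -0.062 (interval -0.16 to 0.032; limma adjusted p = 0.430). Slc6a6, the taurine carrier, had 9.07, 8.87 and 8.87 in heterozygous mice, against 8.90, 8.95 and 8.95 in wild-type mice. Its groups overlapped and its difference was 0.0017 (interval -0.13 to 0.13; limma adjusted p = 0.990).

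The dopamine carrier Slc6a3 and the neuronal amino acid carrier Slc6a17 had the largest Slc6 differences, 0.089 and 0.070 (limma adjusted p = 0.393 and 0.297). The noradrenaline carrier Slc6a2, the proline carrier Slc6a7, the glycine carrier Slc6a9, the betaine carrier Slc6a12 and the renal Slc6a18 had differences of -0.063, 0.0049, 0.051, 0.046 and 0.026. Below the filter were the GABA carriers Slc6a11 and Slc6a13, the serotonin carrier Slc6a4, the glycine carrier Slc6a5, and Slc6a14, Slc6a15, Slc6a16, Slc6a19, Slc6a20a and Slc6a20b, with means of 6.11 to 6.65. Slc6a20a and Slc6a20b are close paralogs, and their probes may not tell them apart.

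Slc1 genes carry glutamate or small neutral amino acids, and none of 4 tested passed. Slc1a5, the sodium-dependent glutamine exchanger, had a log2 signal of 8.41, 8.13 and 8.31 in heterozygous mice, against 8.16, 8.20 and 8.11 in wild-type mice. Heterozygous mouse 2 lay among the wild-type mice, and the log2 difference was 0.13 (interval -0.026 to 0.28; limma adjusted p = 0.323). It was 0.065 without heterozygous mouse 1 and 0.21 without heterozygous mouse 2. The glutamate carrier Slc1a1 had a difference of 0.053 (limma adjusted p = 0.457), the alanine and serine carrier Slc1a4 of 0.028 and the retinal glutamate carrier Slc1a7 of -0.031. The glial glutamate carriers Slc1a2 and Slc1a3 and the cerebellar Slc1a6 were below the filter, with means of 6.44 to 6.70.

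The proton-coupled Slc36 genes did not pass. Slc36a2, a carrier of glycine and proline, had a log2 signal of 7.25, 6.90 and 6.998 in heterozygous mice, against 7.01, 6.93 and 6.90 in wild-type mice. Heterozygous mouse 1 stood above the other 5 mice, and the log2 difference of 0.10 (limma adjusted p = 0.510) was 0.0043 without heterozygous mouse 1 and 0.175 without heterozygous mouse 2. Slc36a3 had a difference of 0.052 (limma adjusted p = 0.617).

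Groups did not overlap for 8 of the 38 tested genes, 5 with all heterozygous mice below and 3 with all above, against 26.3% of all tested probe sets, 13.2% below and 13.1% above. The 5 were Slc15a5, Slc38a4, Slc15a4, Slc6a2 and Slc7a5, and the 3 were Slc7a8, Slc7a6 and Slc6a17. The 25 genes below the filter had differences of -0.092 to 0.14, and no single array gave any of them a signal above 6.77.

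**Figure D3:**
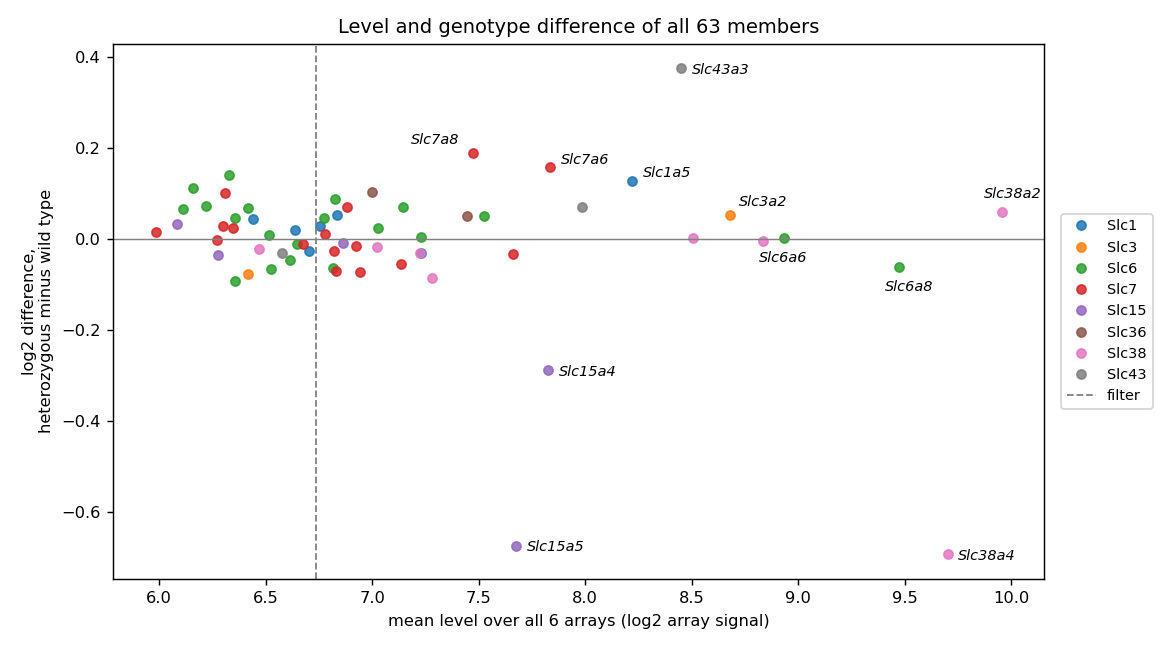
Mean log2 signal over all 6 arrays (horizontal axis) against the log2 difference, heterozygous minus wild type (vertical axis), for all 63 genes, coloured by family; the dashed line is the filter at 6.74. The 25 genes left of the line stay between -0.092 and 0.14, and Slc15a4, Slc15a5 and Slc38a4 lie lowest on the right. Signal is set in part by the probes, so positions along the horizontal axis do not rank transcripts.

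Genes around amino acid transport were read from lists. Beside the counts below, 1.58% of all tested probe sets were called lower and 1.53% higher. None of 14 other amino acid carriers tested passed, and their median difference was -0.0067. The mitochondrial carriers of basic amino acids and glutamate, Slc25a29 and Slc25a22, had the smallest p, with differences of 0.16 and -0.16 (limma adjusted p = 0.074 and 0.153). Of 11 partners and regulators of transporters 2 rose and none fell, with a median of 0.013. Of the 11 differences 6 were positive and 5 negative. Nedd4, named after its values were seen, had a difference of -0.19 (limma adjusted p = 0.053). The arrestin-domain gene Arrdc3, whose protein takes part in the removal of membrane proteins, rose 2.12-fold (9.74 ± 0.21 in heterozygous mice and 8.66 ± 0.28 in wild-type mice, n = 3 each, SD; limma adjusted p = 0.0106). Sgk1, a kinase known to increase the surface amount of several carriers, rose 1.43-fold (12.32 ± 0.18 in heterozygous mice and 11.80 ± 0.13 in wild-type mice; limma adjusted p = 0.0321).

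Of 32 genes of the ATF4 and amino acid response tested, 2 rose, 2 fell and 28 did not pass, with a median of -0.027. The transcription factor gene Cebpb rose 1.89-fold (10.29 ± 0.21 in heterozygous mice and 9.37 ± 0.10 in wild-type mice, n = 3 each, SD) and Phgdh, the first enzyme of serine synthesis, rose 1.21-fold (limma adjusted p = 0.0066 and 0.0230). The lipoprotein receptor gene Vldlr fell by 0.50 and the mitochondrial folate enzyme gene Mthfd2 by 0.27 on the log2 scale (limma adjusted p = 0.0216 and 0.0141). Named after their values were seen, Atf4 itself had a difference of -0.18 (limma adjusted p = 0.060), and its target genes Asns and Trib3 had differences of 0.063 and -0.090 (limma adjusted p = 0.489 and 0.201). Other genes of the list that did not pass were Chac1 at 0.54, Cth at 0.31 and Mars1 at -0.14, among others (limma adjusted p = 0.360, 0.078 and 0.084). Of the 32 differences 11 were positive and 21 negative. The negative ones include every aminoacyl-tRNA synthetase gene of the list, from Wars at -0.0061 to Iars at -0.20, and none of these passed. The count therefore leans on 1 class of genes.

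Among 29 genes of lysosomal amino acid sensing and mTORC1, Flcn, which acts on the Rag GTPases, fell by 0.26 on the log2 scale (limma adjusted p = 0.0267), none rose and 28 did not pass, with a median of -0.010. The arginine sensor gene Castor1 had a difference of 0.12 (limma adjusted p = 0.106). Over 19 genes of branched-chain amino acid breakdown tested the median difference was 0.074. With the mice unpaired 1 rose, which is not reported by name here, none fell and 18 did not pass. Hibch, an enzyme gene of valine breakdown, named after its values were seen, had a difference of -0.20 (limma adjusted p = 0.057, and 0.0423 with the mouse number as a block). Bckdk, the kinase that restrains the branched-chain dehydrogenase, had a difference of 0.16 (limma adjusted p = 0.053). Klf15, a glucocorticoid-induced regulator of this pathway, named after its values were seen, had a difference of 0.47 (limma adjusted p = 0.055).

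Glul, the glutamine synthetase gene, rose 1.48-fold (10.94 ± 0.28 in heterozygous mice and 10.38 ± 0.04 in wild-type mice, n = 3 each, SD; limma adjusted p = 0.0399). It was the 1 call among 10 genes of glutamine, glutamate, alanine and aspartate enzymes, where the proline enzyme gene Prodh had a difference of 0.14 (limma adjusted p = 0.071) and the median was 0.037. Of 8 genes of creatine and taurine synthesis and use, Ckmt2, the mitochondrial creatine kinase gene, fell by 0.23 on the log2 scale (limma adjusted p = 0.0356), and Gatm, which starts creatine synthesis, had a difference of 0.21 (limma adjusted p = 0.148), with a median of 0.059. None of 7 genes of carnosine and dipeptide handling passed, with a median of 0.049. Carns1, the carnosine synthase gene, had a difference of 0.21 (limma adjusted p = 0.0505, and 0.0349 with the mouse number as a block), and the aminopeptidase gene Lap3 of 0.13 (limma adjusted p = 0.107).

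**Figure D4:**
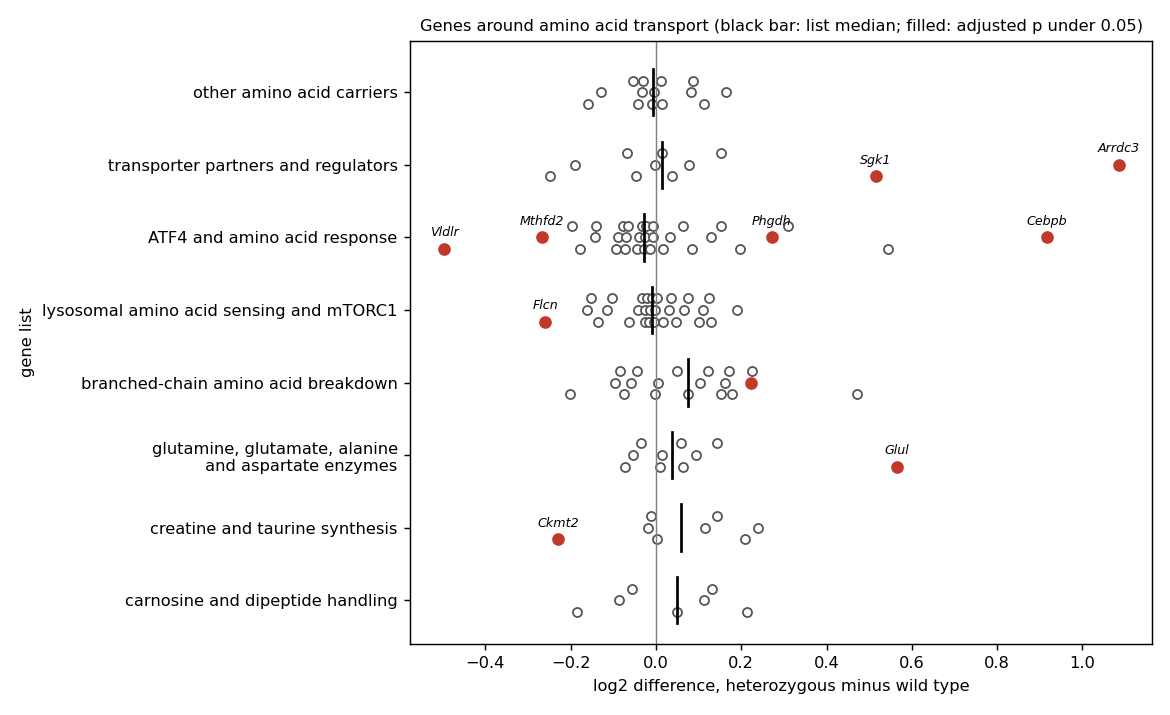
Log2 difference, heterozygous minus wild type, of the tested genes of 8 lists around amino acid transport (points), with the list median (black bar); filled points have an adjusted p under 0.05. The medians lie between -0.027 and 0.074, while Arrdc3 at 1.09, Cebpb at 0.92 and Glul at 0.56 stand to the right.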

How the data were processed

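The deposited values are log2 signals with a column for each array. Sorted, all columns hold the same values (largest difference 0), the mark of quantile normalization, so a change common to all transcripts cannot appear. Per the labels' protocols, Trizol and a Qiagen kit were used for RNA, and biotinylated cRNA was prepared from it. Summarisation software, background correction and probe build: not given in the sources used here.

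Members were taken by Entrez identifier and RefSeq symbol (GRCm38.p6 gene table). The platform annotation also names 61 of the 63, and the others were named by the identifier alone. Some genes are not reported by name here. Members, gene lists and promoter motifs were chosen with earlier results of these data known. The 30th percentile filter left 11544 probe sets, fitted with limma 3.58.1 in R 4.3.3 (lmFit, eBayes). On simulated data of these probe sets the fit recovered 94% of those given a log2 difference of 0.3. It recovered 100% of those given 0.5. The 13 false calls were among all unchanged probe sets of the same simulated fit. Each share recovered rests on a small part of the 11544 probe sets. The simulated noise was normal and independent, with each spread taken from the fit after its shrinkage toward a common value. Real recovery can therefore be lower, and Slc43a3 at a difference of 0.38 was not called with the mice unpaired.

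Genes named in detail were those called, the largest differences and brightest of each family, Slc7a5, Slc3a2, Slc6a8, Slc6a6, Neb, and in each list those called and the smallest p. Both groups number their mice 1 to 3, and same-numbered deviations from the group means correlated at 0.187, 0.234 and 0.129, so a fit with the number as a block is cited where a call changed. The labels do not say what the number stands for. Alternatives were no filter, a 50th percentile filter, the block, a variance trend, array weights, cyclic loess and leaving out each mouse.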

Additional observations from a re-analysis of the deposited data

How the results depend on the processing

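The 359 calls over all probe sets became 572 with the replicate block and ranged from 84 to 503 when 1 mouse was left out, with 503 without heterozygous mouse 1, 121 and 84 without heterozygous mouse 2 and 3, and 97, 103 and 143 without wild-type mouse 1, 2 and 3. The 3 transporter genes called lower were called lower under no filter, the 50th percentile filter, the block, the trend, array weights and cyclic loess, and their count ranged from 1 to 3 when 1 mouse was left out; the 1 was Slc15a5, without heterozygous mouse 2 or wild-type mouse 2. The count called higher was 1 with the replicate block, Slc43a3, and 0 in the other settings. Of the 35 tested transporter genes that did not pass, 15 had a difference whose sign turned when 1 mouse was left out. Among the genes named by rule these were Slc6a6 (-0.021 with array weights, -0.066 to 0.036 when 1 mouse was left out), Slc38a2 (-0.019 to 0.13), Slc3a2 (-0.0024 to 0.11) and Slc36a3 (-0.0053 to 0.089). List medians moved too: leaving out 1 mouse gave other amino acid carriers 0.015 and -0.030, lysosomal sensing 0.0064, glutamine and related enzymes 1.94e-04 and 0.073, creatine and taurine 0.024 (0.12 with the 50th percentile filter), and carnosine 0.027 and 0.078. Neb passed without heterozygous mouse 1 (log2 difference -0.31, limma adjusted p = 0.040). The causes were not tested. Signals near the floor of the arrays limit what can be measured for the 25 genes below the filter.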

Other observations

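Of the 3 nearest protein-coding genes on each side of Slc15a4, Slc15a5 and Slc38a4, by RefSeq order, none that was tested passed. Beside Slc15a4 only Fzd10 was tested (log2 difference -0.017, limma adjusted p = 0.869), because the other neighbours had no row or were below the filter. Beside Slc15a5 on chromosome 6, the glutathione transferase gene Mgst1 had a log2 difference of -0.26 (limma adjusted p = 0.079), and the sugar phosphate aldolase gene Dera of 0.060 (limma adjusted p = 0.410). Beside Slc38a4 on chromosome 15, Pced1b, on the side away from Slc38a2, had a difference of -0.031 (limma adjusted p = 0.862).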
